A study of Arachis hypogaea with 3 samples.

Results

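The sequences described here are those annotated as core or linker histones in RNA-seq data from gynophores of the peanut cultivar Luhua 14 (Arachis hypogaea). A sequence was taken when the description of its best protein match named histone H1, H2, H2A, H2B, H3 or H4 and did not name a histone-modifying enzyme. This gave 46 of the 83579 sequences in the expression table, of which 10 were H1, 4 were H2A, 8 were H2B, 15 were H3 and 9 were H4. No match named H2 without A or B, and the condition on enzymes removed 0 sequences.

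The gynophore, or peg, is the stalk that carries the fertilised ovules of peanut from the flower down into the soil, where the pod forms. Gynophores of field-grown plants were collected at 3 stages. S1 gynophores were aerial, green or purple, and 3 to 5 cm long, S2 gynophores had spent about 3 days buried, and S3 gynophores came from the dark and carried pods of 2 to 3 mm. Each stage was represented by 1 library made from poly(A)-selected RNA, so stages were compared without replicates, SDs or p-values, and every interval below covers counting error only. All 3 stages were of the same cultivar, and the cells of the gynophore tip were not separated, so fewer cells of a type and less RNA per cell cannot be told apart.

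Core histones form the nucleosome, the spool around which DNA is wound. H3 pairs with H4 to form its centre and H2A pairs with H2B on either face, and the linker histone H1 binds where the DNA enters and leaves. Most core histone mRNA is made while DNA is being copied, whereas replacement variants such as H3.3 are also made outside that phase. Plant histone mRNAs carry poly(A) tails, unlike the bulk of the replication-dependent histone mRNAs of animals, so poly(A) selection keeps them. Cultivated peanut is an allotetraploid, and its genes often occur as near-identical copies. The deposited values count reads that aligned to a single sequence, so reads shared by such copies are missing from them, and the split between similar members is uncertain.

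Histone reads made up a similar part of each library, but the classes moved apart between S2 and S3. Linker histone H1 was highest in S3, and each of the 4 core classes was lowest there. The libraries were of similar depth, with 33.3% (S1), 32.2% (S2) and 34.5% (S3) of the 20734295 reads counted. Scaled to 1000000 counted reads in each library (RPM), the 46 sequences took 4002 in S1, 4521 in S2 and 4374 in S3. H1 gave an RPM of 1556, 1717 and 2773 in the same order. H3, the class with the largest difference in the other direction, gave 910, 1069 and 461. The RPM was 1273, 1433 and 982 for H2B, 169, 193 and 103 for H2A, and 94.5, 110 and 55.0 for H4.

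As a share of all histone reads, H1 made up 38.9% of S1 (95% exact Clopper-Pearson interval 38.3 to 39.5), 38.0% of S2 (37.4 to 38.5) and 63.4% of S3 (62.9 to 63.9). The share of H3 was 22.7% in S1 and 23.6% in S2, against 10.5% in S3 (10.2 to 10.9). The shares of all 5 classes in S1 and S2 thus lay within 1 percentage point of each other, and the makeup in S3 stood apart from both. The share of H2B was 31.8%, 31.7% and 22.5% in S1, S2 and S3.

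**Figure D1:**
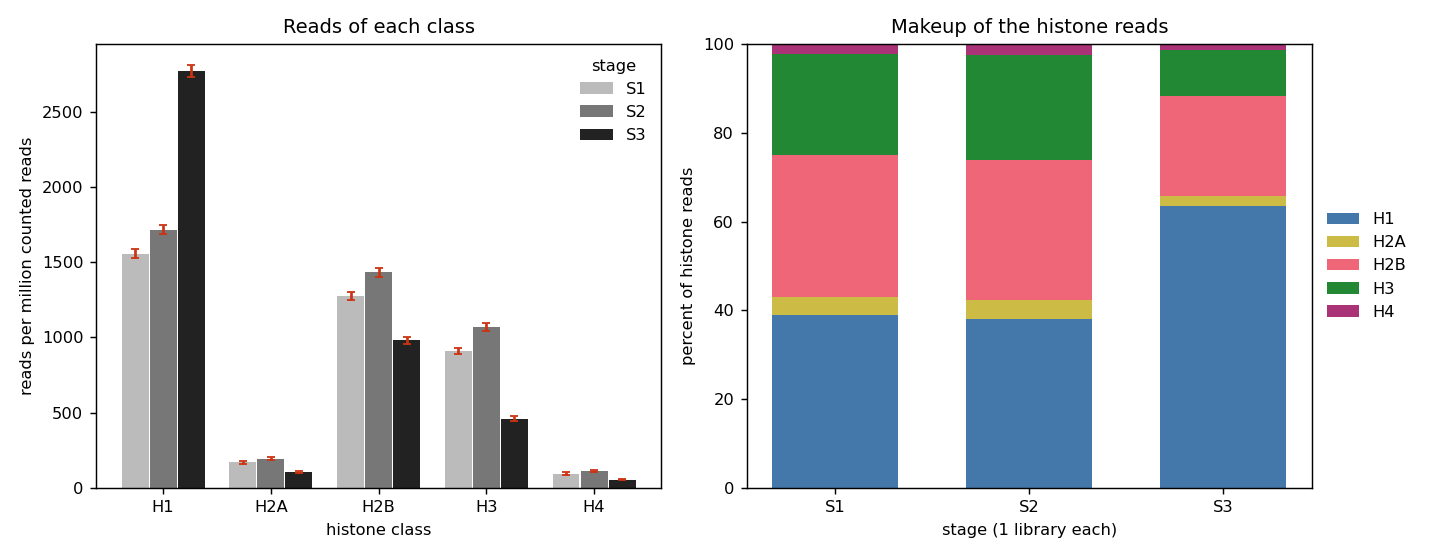
Left, RPM (y axis, reads scaled to 1000000 counted reads) of each histone class (x axis) in the S1, S2 and S3 libraries, with 95% exact Poisson intervals as error bars; right, the percentage of histone reads held by each class in each library. H1 stands at an RPM of 2773 in S3 against 1556 in S1 and 1717 in S2, and all 4 core classes have their shortest bar in S3.

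Read counts favour longer sequences, so classes were set against each other by summed RPKM, the RPM divided by the length of the sequence in kilobases. On this scale H1 to H3 stood at 0.964 in S1, 0.917 in S2 and 3.57 in S3. The ratios between core classes differed less. H2B to H2A, the partners on the faces of the nucleosome, stood at 10.8, 10.5 and 11.3, and H3 to H4, the partners at its centre, at 8.90, 9.0 and 7.61. These ratios are of annotated, uniquely aligned sequences and not of protein, and the low sums of H2A and H4 depend on which sequences the annotation names as such.

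From S1 to S2 the differences were small and nearly all in one direction. The S2 to S1 ratio of summed reads was 1.13 for all histones (95% exact interval 1.11 to 1.15), 1.10 for H1, 1.14 for H2A, 1.13 for H2B, 1.17 for H3 and 1.16 for H4. The median S2 to S1 log2 ratio on RPKM + 1 was 0.19 over the histones and 0.00 over every sequence with a read. Of the 45 histone sequences with a read, 0 were at least 2 times higher in S2 on RPKM + 1 and 1 was lower by the same limit, where 9.03% and 9.19% of the 81517 sequences with a read were past these limits. Among the 37 histone sequences with at least 20 reads summed over the libraries, the S2 to S1 interval lay above 1 for 14, held 1 for 23 and lay below 1 for 0. The same share over all sequences was not computed, and intervals narrow as reads increase, so this count has no background beside it. The highest RPKM was in S2 for 28 of the 45, in S1 for 6 and in S3 for 11, while S2 was the highest stage of 25.7% of all annotated sequences with a read. In 4 of these members, each with at least 20 reads, the highest stage moved to S2 under either of the other library scalings.

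From S2 to S3 the members split. There were 4 of 45 at least 2 times higher in S3 than in S2, beside 18.6% of all sequences, and 11 at least 2 times lower, beside 11.4%. Under both other library scalings these counts were 2 and 14, with 14.0% and 14.8% of all sequences under median-of-ratios scaling. From S1 to S3, 5 were at least 2 times higher, beside 21.0% of all sequences, and 11 at least 2 times lower, beside 13.9%. Members at least 2 times lower in S3 than in S1 were 7 of 14 in H3, 2 of 8 in H2B, 1 of 4 in H2A, 1 of 9 in H4 and 0 of 10 in H1, and the higher ones were 2 each in H1 and H3 and 1 in H2B. The 7 in H3 included GW962268, which had only 18 reads in all. Among the 11 H3 members with at least 20 reads, 6 were lower. The sum over all histones was 1.09 times S1 in S3 (1.08 to 1.11), but 0.957 and 0.967 times under the median-of-ratios and upper-quartile scalings and 0.916 times without the most read H1 sequence, so it has no direction that holds across these settings.

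**Figure D2:**
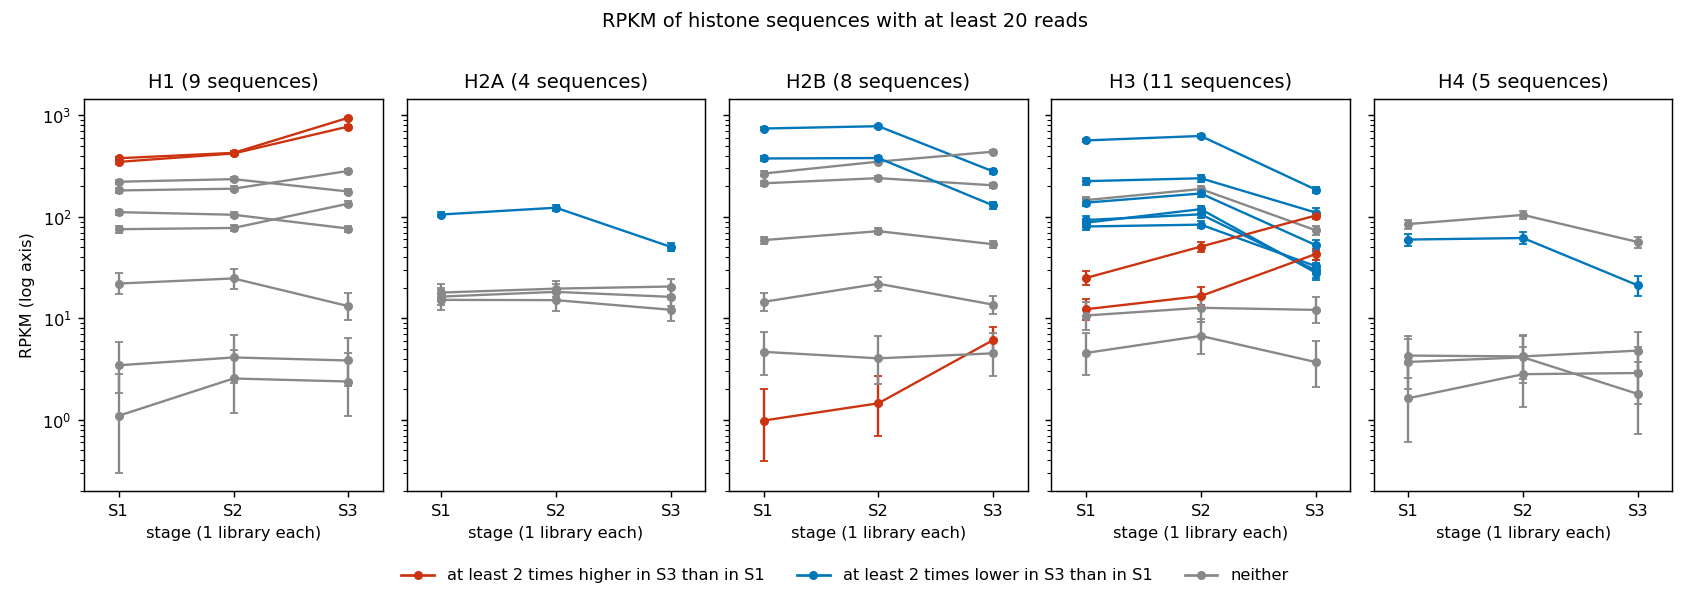
RPKM (log axis) of the 37 histone sequences with at least 20 reads in S1, S2 and S3, 1 panel per class and 1 line per sequence, with 95% exact Poisson intervals as error bars; red and blue mark sequences at least 2 times higher or lower in S3 than in S1 on RPKM + 1, and grey the others. The lines run nearly level from S1 to S2 and fan out from S2 to S3, upward for the leading H1 pair and downward for most of H3.

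The linker histones divided by the protein they matched best. EZ726219 and EZ730352, both matched to the same poplar H1 protein, were the most read histone sequences of the table. EZ726219 (1177 bases) had an RPKM of 378 in S1, 427 in S2 and 947 in S3. EZ730352 (1166 bases) had 348, 421 and 777. Both were lower in S1 and S2 than in S3, with S3 to S1 ratios of 2.50 (2.40 to 2.61) and 2.23 (2.13 to 2.33). Under median-of-ratios scaling the ratio of EZ730352 was just under the limit of 2, at 1.95.

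The pair matched to pea H1 subtype 7 lay on the same side with a smaller difference. In S1, S2 and S3, EZ721303 had an RPKM of 182, 190 and 284, and EZ732281 had 75.6, 77.8 and 135. Their S1 and S2 values agreed within counting error, and the S3 values were 1.56 times (1.44 to 1.68) and 1.79 times (1.62 to 1.97) those of S1. Both ratios stayed above 1 under either other scaling.

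Sequences matched to a castor bean linker histone annotated as h1/h5 lay on the other side. EZ726594 had an RPKM of 222 in S1, 235 in S2 and 178 in S3, a S3 to S1 ratio of 0.801 (0.749 to 0.857). EZ722804 had 111, 105 and 76.7, a ratio of 0.689 (0.630 to 0.753). JK149310, the H1 sequence with the lowest S3 to S1 value among those with at least 20 reads, had 22.0, 24.8 and 13.2, a ratio of 0.599 (0.402 to 0.885). All 3 had their lowest value in S3.

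Summed by match, the poplar-matched H1 sequences stood at 2.37 times S1 in S3, the subtype 7 pair at 1.64 times and the 4 matched to castor bean at 0.756 times. Without EZ726219 and EZ730352 the other 8 H1 sequences summed to 1.07 times S1 in S3 (1.03 to 1.11), and to 0.934 times under median-of-ratios scaling. The H1 total in S3 therefore rested on that pair. The remaining H1 sequences were scarce, with 13, 15 and 15 reads for JK182656, 4, 9 and 9 for JK199571 and 3, 1 and 2 for JK150572 in S1, S2 and S3, too few to order the stages.

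H2A was carried by 1 sequence. EZ730033 (1201 bases) reached 106 RPKM in S1, 123 in S2 and only 50.7 in S3, while holding 75.2%, 76.7% and 59.3% of the H2A reads. Its S3 to S1 ratio was 0.480 (0.427 to 0.539). The other members showed no such difference at this depth: EZ728437 had 18.0, 19.6 and 20.6, EZ726972 had 16.4, 18.3 and 16.3, and Unigene16323 had 15.2, 15.1 and 12.2. Without EZ730033 the class stood at 1.00 times S1 in S3 (0.848 to 1.18), and at 0.876 times under median-of-ratios scaling. Unigene16323 had the weakest protein match of the 37 well-read members, with an E-value of 8.9e-07. No description named the variants H2A.Z or H2A.X.

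H2B held sequences with the same best match and opposite differences. EZ723083 (587 bases), matched to tea H2B.2, had the highest RPKM of any histone in S1 and S2, at 742 and 782, and 280 in S3. EZ733009, matched to the same protein, had 267 in S1, 350 in S2 and 439 in S3. In S1 EZ723083 was thus the higher of the pair and in S3 EZ733009 was. The S3 to S1 ratios were 0.378 (0.353 to 0.404) for EZ723083 and 1.64 (1.55 to 1.74) for EZ733009.

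EZ723785, the only member described as H2B.3, had an RPKM of 376, 380 and 130. Its S3 to S1 ratio of 0.345 (0.315 to 0.377) was the lowest of the class. EZ722721 had 214, 241 and 205, with a ratio of 0.956 and an interval of 0.887 to 1.03 that held 1, though under median-of-ratios scaling the ratio was 0.837. EZ725187 had the highest ratio of any well-read histone, 6.21, but from 7, 10 and 45 reads, so its interval ran from 2.78 to 16.3.

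The other H2B members were EZ732426, with an RPKM of 59.0 in S1, 72.3 in S2 and 53.8 in S3, EZ732420, with 103, 150 and 100 reads, and Unigene66153, with 18, 15 and 18 reads. The interval of S3 to S1 held 1 for each. Reads of EZ732420 covered only 9.47% of its 1024 bases in S1. Without EZ723083 the summed H2B ratio of S3 to S1 moved from 0.771 to 0.976 (0.941 to 1.01), and under median-of-ratios scaling from 0.675 to 0.855.

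Sequences described as H3.2 held 69.4% (S1), 68.3% (S2) and 49.6% (S3) of the H3 reads. EZ755733 (673 bases) had an RPKM of 567 in S1, 627 in S2 and 186 in S3, a S3 to S1 ratio of 0.328 (0.304 to 0.354). EZ756214 had 146, 188 and 73.9, EZ756213 had 138, 170 and 52.8, and GW948221 had 93.1, 106 and 29.9. All 4 were highest in S2 and lowest in S3. EZ756214 was just short of the limit of 2, with a log2 ratio of -0.98 on RPKM + 1 (S3 to S1), and is not counted as lower, and GW948221 had the lowest log2 value of the class, -1.61. Summed, they stood at 0.362 times S1 in S3 (0.342 to 0.383). The number after H3 is the annotation's and is not used alike across species, so no role is assigned to it here.

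A pair matched to a wheat H3 protein followed the same order. In S1, S2 and S3, EZ721950 had an RPKM of 87.7, 119 and 28.3, and EZ729098 had 80.4, 83.9 and 32.7. Their S3 to S1 ratios were 0.322 (0.267 to 0.387) and 0.407 (0.348 to 0.475).

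A trio with the best match to one Arabidopsis H3 protein was divided. Unigene60191 (390 bases) had an RPKM of 225 in S1, 240 in S2 and 110 in S3, a S3 to S1 ratio of 0.491 (0.427 to 0.564). EZ721081 (856 bases) had 25.0 in S1, 50.9 in S2 and 103 in S3. EZ725109 (858 bases) had 12.3, 16.6 and 43.0. The latter pair were the only well-read core histones besides EZ733009 and EZ725187 whose S3 to S1 interval lay above 1, at 4.12 (3.44 to 4.96) and 3.50 (2.69 to 4.59). EZ721081 also had the largest S2 to S1 difference on RPKM + 1 among the well-read members, just under the limit, with an RPKM ratio of 2.04 (1.66 to 2.50). By RPKM, which divides by the full length, Unigene60191 thus stood far above EZ721081 in S1 and close to it in S3. Reads covered 94.1% of Unigene60191 and 50.7% of EZ721081 in S1, and 93.1% and 51% in S3. The comparison of these 2 therefore depends on the length used.

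**Figure D3:**
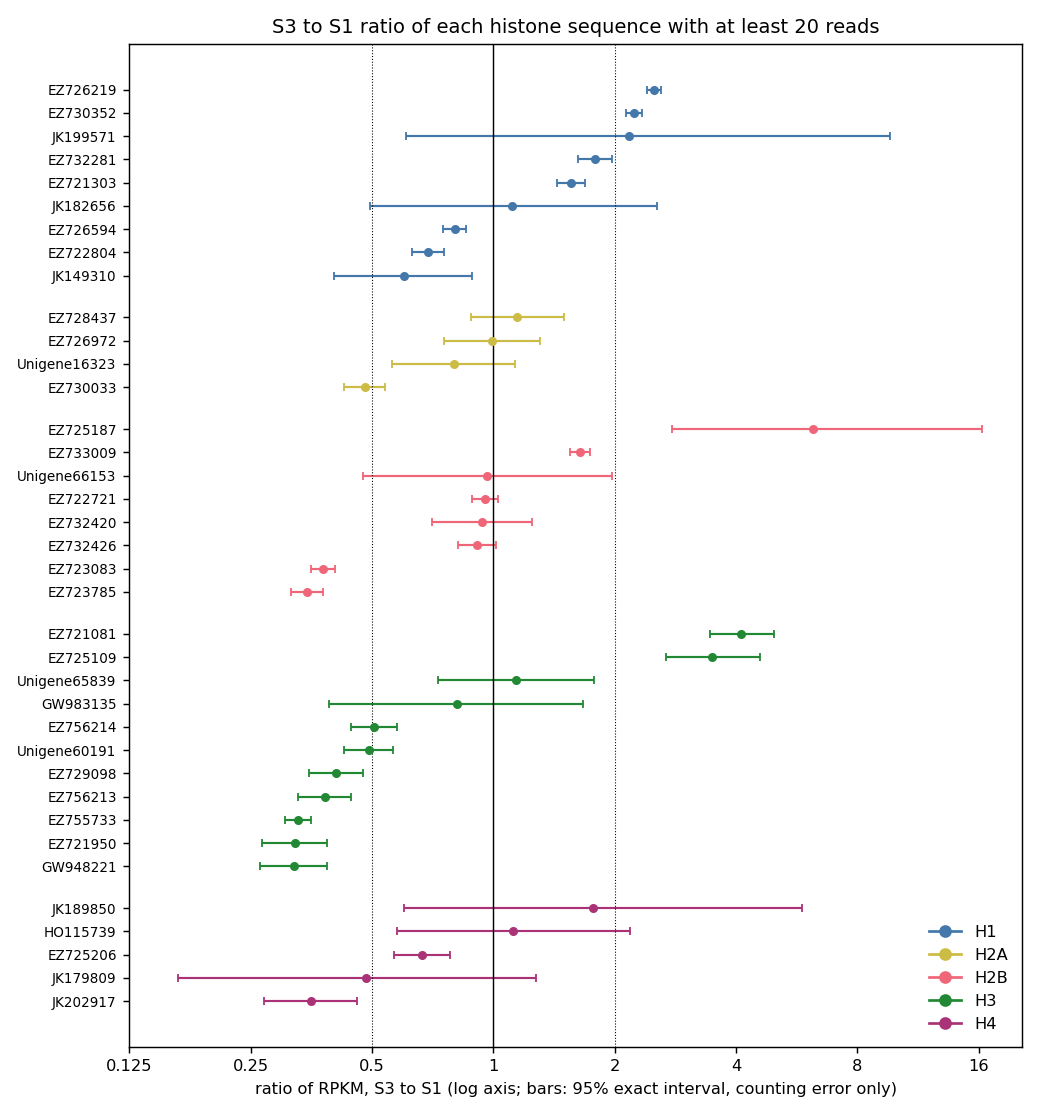
Ratio of RPKM in S3 to S1 (log axis) for the 37 histone sequences with at least 20 reads, grouped by class, with 95% exact intervals that cover counting error only; dotted lines mark ratios of 0.5 and 2. EZ721081 at 4.12 and EZ725109 at 3.50 stand to the right within H3, where 7 of 11 intervals lie below 1.

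The summed H3 ratio of S3 to S1 was 0.506 (0.485 to 0.528). It was 0.635 without EZ755733, 0.834 without the 4 H3.2 sequences and 0.382 without the pair that was higher in S3. Of the other H3 members, Unigene65839 had 40, 46 and 47 reads and GW983135 had 19, 27 and 16, with intervals that held 1. The description H3.3-like, a name that usually marks the replacement variant, was carried by GW962268 alone, which had 13, 1 and 4 reads. It was the 1 member past the limit between S1 and S2, at a ratio of 0.0797 whose interval ran from 0.00187 to 0.530. HO115749 had 1, 2 and 0 reads and GW956602 had 0, 1 and 0. EZ721679 had no read in any library, with upper 95% limits of 0.908, 0.940 and 0.878 RPKM. No description named the centromeric H3.

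H4 was the class with the fewest reads, and its 9 sequences all matched the same maize protein. EZ725206 (659 bases) had an RPKM of 85.0 in S1, 105 in S2 and 56.5 in S3, a S3 to S1 ratio of 0.664 (0.566 to 0.779). JK202917 (530 bases) had 59.8, 61.9 and 21.1, a ratio of 0.353 (0.270 to 0.458). Both were lowest in S3. HO115739 had 19, 18 and 22 reads, JK179809 had 14, 15 and 7, and JK189850, with the highest S3 to S1 value of the class, had 6, 10 and 11. Their intervals all held 1. The last 4 members, JK187757, JK178616, JK178994 and JK179919, had at most 7 reads in a library. The summed H4 ratio of S3 to S1 was 0.582 (0.512 to 0.660), and 0.462 (0.371 to 0.572) without EZ725206.

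Counting each well-read member by its interval, S3 was above S1 for 8 of 37, below for 15, and not distinguishable at this depth for 14. The 8 were 4 of 9 in H1, 2 of 8 in H2B and 2 of 11 in H3. The 15 were 3 in H1, 1 of 4 in H2A, 2 in H2B, 7 in H3 and 2 of 5 in H4. The share of all sequences with an interval off 1 was not computed. Intervals narrow as reads increase, so these counts describe the members and do not set histones apart from other sequences. The median log2 ratio of S3 to S1 on RPKM + 1 was 0.38 for H1, -0.15 for H2A, -0.08 for H2B, -1.0 for H3 and -0.03 for H4. Among members with at least 20 reads it was 0.64 for H1, -1.02 for H3 and -0.58 for H4, and the same for H2A and H2B. The H4 value of -0.03 thus depended on members with few reads. Over every sequence with a read it was 0.16, and 0.01 after upper-quartile scaling, so the S3 values as deposited sit 0.16 above S1 for the typical sequence. Relative to that shift the medians of H2A, H2B, H3 and H4 lay lower still, and that of H1 was 0.21 and 0.22 under the median-of-ratios and upper-quartile scalings.

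Genes that work beside the histones were drawn from the annotation by name. The replication list held 59 sequences of the machinery that copies DNA and supplies its nucleotides, such as MCM helicase subunits, PCNA and ribonucleotide reductase. Its sequences summed to an RPM of 965, 776 and 509. The list was highest in S1 and lowest in S3, whereas the core histones were highest in S2. From S1 to S2, 1 of the 59 was at least 2 times higher (1.69%, beside 9.03% of all sequences) and 7 lower (11.9%, beside 9.19%). From S2 to S3, 7 were higher (11.9%, beside 18.6%) and 12 lower (20.3%, beside 11.4%), and from S1 to S3, 4 were higher (6.78%, beside 21.0%) and 19 lower (32.2%, beside 13.9%). The median log2 ratios were -0.27 (S2 to S1) and -0.77 (S3 to S1). Under both other library scalings, 4 were higher (6.78%) and 18 lower (30.5%) from S2 to S3. Of all sequences, 14.0% were higher and 14.8% lower under median-of-ratios scaling, and 13.8% and 15.2% under upper-quartile scaling. From S1 to S3, 4 were higher (6.78%, beside 17.1% and 17.4%) and 25 lower (42.4%, beside 16.8% and 16.5%).

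EZ728856, the small chain of ribonucleotide reductase, had an RPKM of 108 in S1, 98.8 in S2 and 34.3 in S3. Unigene19333, its large subunit, had 66.3, 47.7 and 20.8, and Unigene69533, the helicase subunit MCM7, had 55.0, 55.0 and 25.1. All 3 were lowest in S3, with S3 to S1 ratios of 0.317 (0.282 to 0.357), 0.315 (0.278 to 0.356) and 0.458 (0.372 to 0.560). The S3 to S1 ratio of the replication sum was 0.527, beside class sums of 0.506 for H3, 0.582 for H4, 0.609 for H2A, 0.771 for H2B and 1.78 for H1. Without their most read members the H2A and H2B ratios were 1.00 and 0.976.

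The mitosis list held 68 sequences named as mitotic cyclins, cohesin, condensin, spindle checkpoint proteins and the like. They summed to an RPM of 909, 734 and 828. From S1 to S2, 0 of the 68 were at least 2 times higher and 9 lower (13.2%, beside 9.19% of all sequences). From S2 to S3, 4 were higher (5.88%, beside 18.6%) and 6 lower (8.82%, beside 11.4%), and from S1 to S3, 1 was higher (1.47%, beside 21.0%) and 22 lower (32.4%, beside 13.9%). Under median-of-ratios and upper-quartile scaling, 0 were higher (beside 14.0% and 13.8%) and 10 lower (14.7%, beside 14.8% and 15.2%) from S2 to S3. From S1 to S3, 0 were higher (beside 17.1% and 17.4%) and 24 lower (35.3%, beside 16.8% and 16.5%) under these scalings. The 3 most read members did not share 1 order. Unigene72067, the cohesin subunit RAD21, had an RPKM of 33.3 in S1, 32.8 in S2 and 59.7 in S3. Unigene3892, the SMC6 protein of chromosome maintenance, had 23.9, 24.7 and 36.3, and Unigene72098, a condensin subunit, had 44.6, 32.9 and 39.7.

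Histone chaperones and assembly factors, which hand histones to DNA, were named in 5 sequences. EZ730826, the SSRP1 subunit of the FACT complex that moves H2A and H2B on and off nucleosomes, had an RPKM of 90.2 in S1, 84.8 in S2 and 155 in S3, a S3 to S1 ratio of 1.72 (1.60 to 1.84). It held 73.3% of the reads of the list in S3. Unigene70606 and EZ724783, both described as nucleosome or chromatin assembly factor group members, had 53.9, 46.6 and 52.3, and 45.4, 41.9 and 36.1. From S1 to S3, 1 of the 5 was at least 2 times higher and 1 lower, from S2 to S3 1 was higher and 0 lower, and from S1 to S2 none passed the limit. In a list of 5, 1 sequence is a share close to the 21.0% and 18.6% of all sequences that were higher in S3 than in S1 and in S2. Lower in S3 were 13.9% of all sequences against S1 and 11.4% against S2. From S1 to S2, 9.03% of all sequences were higher and 9.19% lower. The 1 lower chaperone sequence, Unigene22527, had 11 reads in all, too few to order the stages.

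**Figure D4:**
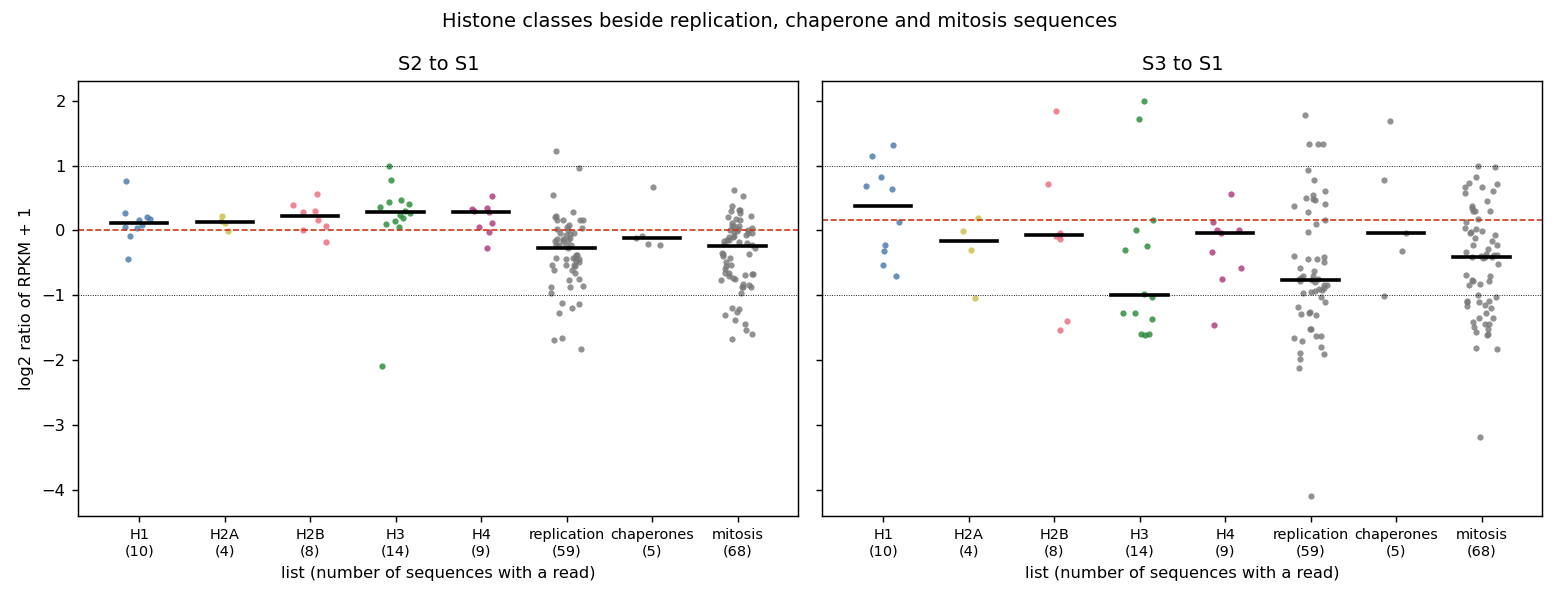
Log2 ratio of RPKM + 1 for S2 to S1 (left) and S3 to S1 (right), with 1 point per sequence with a read in each histone class and in the replication, chaperone and mitosis lists, a black bar at each median, a dashed red line at the median of every sequence with a read and dotted lines at 1 and -1. In S2 to S1 the class medians lie above 0 and the replication and mitosis medians at -0.27 and -0.25, and in S3 to S1 H3 lies at -1.0 and replication at -0.77.

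Summed reads of marker sequences of green tissue and of seeds also differed between the libraries. Chlorophyll-binding, photosystem and Rubisco small-chain sequences, of which 53 of 58 had a read, had a summed RPM of 3868 in S1, 215 in S2 and 373 in S3. Seed storage and oil-body proteins, of which 36 of 49 had a read, had 198, 333 and 189. A conglutin, EZ724139, held 29.7%, 55.4% and 21.5% of the seed reads in S1, S2 and S3. The median S2 to S1 log2 ratio of the seed list on RPKM + 1 was 0.0028, so its higher S2 sum leaned on that sequence. The green-tissue sum differed mostly between S1 and S2, and the histone classes mostly between S2 and S3. The part of these differences in the histone values was not tested.

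The members shared annotation beyond the name. The 46 sequences had 18 best matches, of which 39 members matched a land plant protein, 1 a green alga and 6 an entry with no species in its description. A Gene Ontology term for chromatin was attached to 42 and nucleosome organization to 43, out of 120 sequences with the latter term in the whole table. Only 4 were unigenes, the sequences assembled from the reads, and 42 were public sequences. The 10 most read members held 74.7%, 73.4% and 82.2% of histone reads in S1, S2 and S3. Coverage by reads in S1 ran from 9.47% to 99.2% of the length over the 37 well-read members, with a median of 57.6%, and 25 of the 37 kept it within 5 percentage points across the libraries.

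Other wordings for histones were counted apart, a check chosen after seeing the data. There were 7 such sequences, 5 of them described as histone 2 after a poplar match. EZ734750, the most read, had an RPKM of 173 in S1, 190 in S2 and 86.8 in S3, a S3 to S1 ratio of 0.503 (0.450 to 0.561). EZ722648, the next, had 59.8, 76.9 and 52.4. Both were highest in S2 and lowest in S3. Unigene51904, Unigene28667, Unigene56065 and Unigene1664, named as histones in the protein lists of the study, were not among the sequences with expression values. They were therefore not analysed here.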

How the data were processed

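RNA from gynophores of 3 stages was enriched for poly(A) mRNA and sequenced with Illumina protocols, with 1 library per stage. The authors deposited, for each of 83579 sequences (assembled unigenes and public peanut sequences), the length, the counts of uniquely aligned reads, the RPKM and the percent of the length covered, together with the best protein match and its E-value. No source used here names the aligner. RPKM recomputed from the deposited counts and lengths differed by at most 8.42e-09 of its value. Total counted reads were 6673924 to 7149378 per library, so 1 read stood for about the same share of each.

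Histones and their classes were matched by words in the description. A sequence was called higher or lower when RPKM + 1 was at least 2 times apart, among the 81517 sequences with a read. No p-value was computed. RPKM and class sums carry 95% exact Poisson intervals, and ratios exact Clopper-Pearson intervals. Named in each class were the 4 most read sequences, those with the highest and lowest S3 to S1 value among those with at least 20 reads, and named variants. The other members were added after their values were seen, so that each is accounted for. In each other list the 3 most read were named. The members and lists were chosen with earlier results of these data known. Lists were matched by words, so the chaperone list also took 3 sequences described as nucleosome or chromatin assembly factor group, and related names entered the others. Python 3.11.15, pandas 2.3.3, numpy 2.4.6, scipy 1.17.1 and matplotlib 3.10.9 were used, and the counting steps were tested on simulated data. Alternatives were other library scalings, a pseudocount of 0.1, filters on reads and length, and other sets of members.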

Additional observations from a re-analysis of the deposited data

How the results depend on the processing

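No paired analysis was possible because there was a single library per stage, and no replicate could be left out. The S3 to S1 ratio of all histone reads turned from 1.09 to 0.957 and 0.967 under the other scalings, and that of the H1 sequences without the leading pair from 1.07 to 0.934 and 0.945. Of 222 recomputed median log2 ratios 10 changed sign, among them H1 from S2 to S3 (0.08 to -0.03 and -0.04 under the scalings, -0.07 with at least 20 reads or without its most read member), and 8 moved by over 0.5. With 1 sequence per best match (2 left in H2B, 1 in H4) the H2B median was -1.51 from S2 to S3 and -1.47 from S1 to S3, and with that choice or at least 20 reads the H4 median was -0.58 from S1 to S3. The S2 counts against S1 were 1 higher under both other scalings, and 5 higher and 2 lower with a pseudocount of 0.1, while 0 were lower among sequences with at least 20 reads, among unigenes alone or among named histone proteins alone. For S3 against S2 the counts were 2 higher under both other scalings, 17 lower with the pseudocount of 0.1, 0 higher and 1 lower among the 4 unigenes, and 1 higher and 6 lower with 1 sequence per best match. For S3 against S1 they were 0 higher and 1 lower among the unigenes and 1 higher and 7 lower with 1 sequence per best match. Under both other scalings they were 4 higher and 12 lower. Of all sequences, 17.1% were higher and 16.8% lower under median-of-ratios scaling, and 17.4% and 16.5% under upper-quartile scaling. Under these scalings 9.76% and 10.2% of all sequences were higher in S2 than in S1, and 14.0% and 13.8% higher in S3 than in S2. No share over all sequences was computed for the other settings of these counts. Other medians were those of all histones from S1 to S2 among unigenes (0.043), H4 from S2 to S3 (-1.16) and replication from S1 to S3 (-0.94) with the pseudocount of 0.1, and mitosis from S2 to S3 under the median-of-ratios (-0.43) and upper-quartile (-0.45) scalings. The summed histone RPM in S1, S2 and S3 was 4133, 4789 and 3954 under median-of-ratios scaling, 4101, 4865 and 3967 under upper-quartile scaling, 107, 114 and 60.8 over unigenes alone, and 2557, 2921 and 2871 without the most read member of each class. Leaving out the most read member from each median and adding the other histone wordings were chosen after seeing the data. Without the most read member the S1 to S3 median was 0.12 for H1 and -0.0085 for H2A. The H1 sum without its leading pair and the H3 sums without the H3.2 sequences or the pair higher in S3 were also chosen after seeing the data. The cause of the moves was not tested, and the 9 members under 20 reads cannot order the stages at this depth.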
